A study of Mus musculus with 6 samples.

Results

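The genes of creatine synthesis, uptake and cycling were examined in RNA-Seq data of subcutaneous inguinal white adipose tissue (iWAT) from 6 mice. The genes were taken by name for their function: *Gatm*, *Gamt*, *Slc6a8*, *Ckb*, *Ckmt1*, *Ckmt2* and *Alpl*. All 7 were found by symbol among the 19445 gene loci of the deposited table, and where a symbol stood on several rows the row with the highest mean was used. The *Hlx* transgenic group held 3 mice that carried the full-length *Hlx* cDNA, a homeobox transcription factor, under the *aP2* (*Fabp4*) promoter, which drives expression in fat. Embryos of C57BL/6 × SJL hybrids received the transgene, lines were backcrossed to C57BL/6, and the number of lines sampled is not given in the sources used here. The control group held 3 wild-type littermates without the transgene. All 6 mice were 12 weeks old and labelled male, none was treated, and each gave 1 library. The wild-type libraries and the transgenic libraries are numbered 1 to 3 in the labels.

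Creatine stores and moves high-energy phosphate. *Gatm* joins arginine and glycine to form guanidinoacetate, *Gamt* methylates it to creatine with a methyl group from S-adenosylmethionine, and *Slc6a8* carries creatine into the cell across the plasma membrane. Creatine kinases transfer phosphate between ATP and creatine, with *Ckb* encoding the brain-type cytosolic enzyme, *Ckmt1* the ubiquitous mitochondrial enzyme and *Ckmt2* the sarcomeric mitochondrial enzyme. In thermogenic fat, a cycle in which phosphocreatine is made and then hydrolysed has been described as a route of ATP turnover beside *Ucp1*. Ckb has been assigned to the first step of that cycle and tissue-nonspecific alkaline phosphatase, the product of *Alpl*, to the hydrolysis.

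Levels are given as FPKM, fragments scaled to transcript length and to the mapped reads of a library, so levels of different genes may be compared. Each difference was tested with limma on log2(FPKM + 1) over the 11692 loci whose mean FPKM was over 1 in at least 1 genotype, two-sided, with Benjamini-Hochberg adjustment. A locus was called at an adjusted p under 0.05. On this scale the change of a weakly expressed gene comes out too small. An exact permutation test over 3 against 3 mice reaches a two-sided p of 0.1 at the least.

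Some facts about the libraries bear on the members. *Hlx* RNA was at 79.6 to 110 FPKM in transgenic mice and at 6.88 to 8.14 FPKM in wild-type controls. Of 8 markers of brown adipocytes, 7 were higher in transgenic iWAT, among them *Ucp1*, and *Dio2* was not called. For this and the later marker counts, 11.6% of all tested loci were called higher and 7.03% lower. Of 7 adipocyte markers with a row of their own, 6 were called in neither direction and *Adipoq* was lower, and their summed level was 28300 to 33600 FPKM in transgenic and 24000 to 29700 FPKM in wild-type mice. Most of that sum was *Fabp4*, at 24560 to 29360 FPKM in transgenic and 19300 to 23540 FPKM in wild-type mice, while *Adipoq* had a ratio of mean FPKM of 0.55. Skeletal muscle RNA differed between mice. The summed level of 13 muscle markers was 198, 988 and 240 FPKM in transgenic mice and 52.3, 241 and 97.6 FPKM in wild-type controls, and transgenic replicate 2 stood apart. Epithelial RNA also differed between mice, and macrophage markers were lower in transgenic iWAT. The mice are labelled male, but *Xist*, the RNA made by an inactive X in female cells, stood at 20.2 to 33.6 FPKM in all 6 libraries and 0 of 28 Y-linked loci had a value above 0 in any library. In bulk tissue such as this, fewer cells of a type and less RNA per cell cannot be told apart.

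Of the 7 creatine genes, *Alpl* and *Slc6a8* were higher in transgenic iWAT, and none was lower. *Alpl* rose 3.77-fold in mean FPKM and *Slc6a8* 1.77-fold. Synthesis genes *Gatm* and *Gamt* and the kinase genes *Ckb*, *Ckmt1* and *Ckmt2* were not called in either direction. All 7 passed the filter on low values, and *Ckmt2* passed it through the transgenic mice alone. Over all tested loci, 11.6% were called higher, 7.03% lower and 18.6% in either direction by limma, against 2 higher and 0 lower of the 7 members, and 0 of the members that were lower had an unadjusted limma p under 0.05. Of the 7 members 2 had groups without overlap, a property of 42.9% of all tested loci. The median log2 fold change was 0.24 over the members and -0.01 over all tested loci. The members were chosen with earlier results of these data known, so these counts are no test against all loci.

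**Figure D1:**
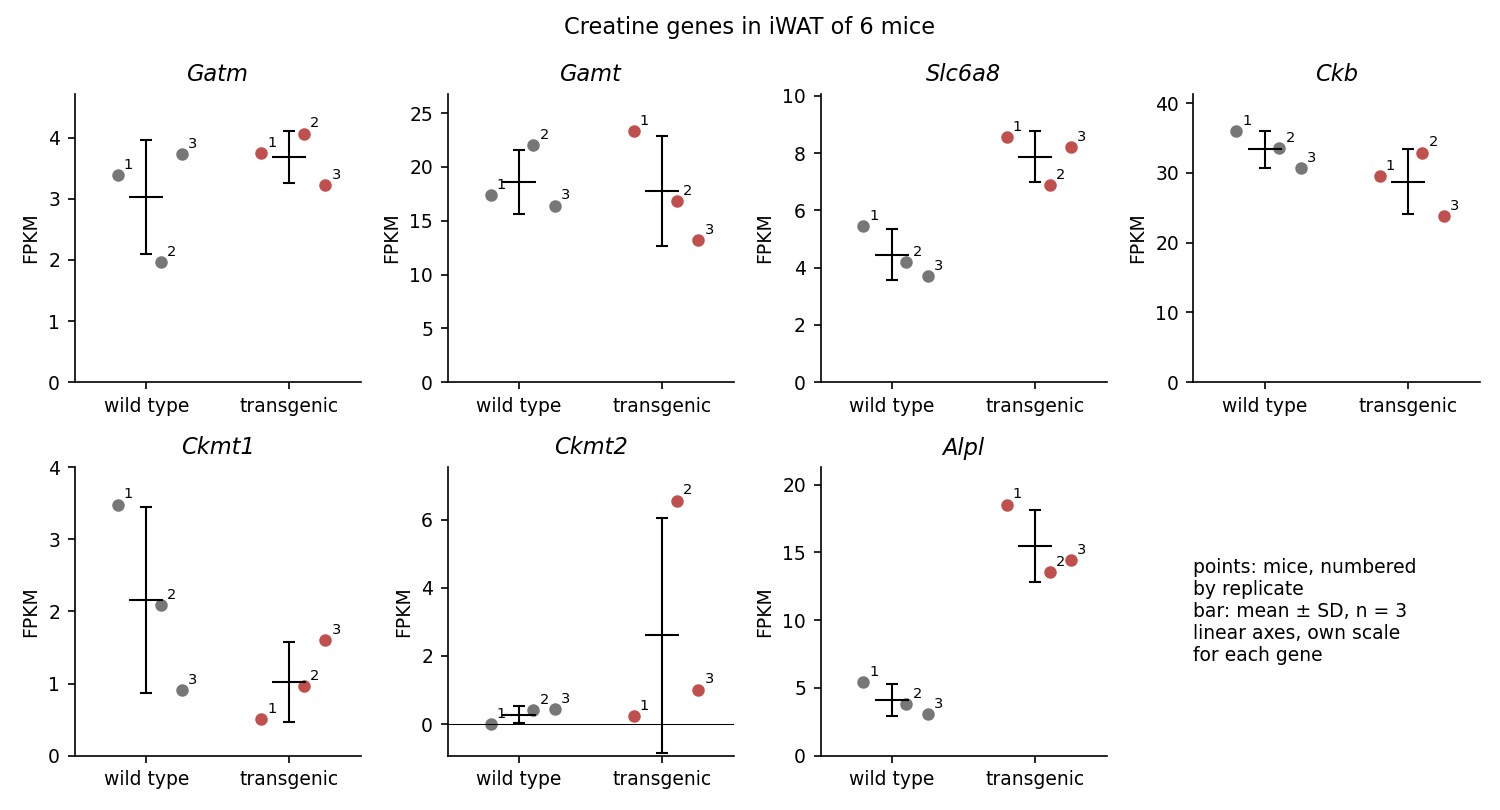
FPKM of the 7 creatine genes (vertical axes, linear, a scale of its own for each gene) in wild-type and transgenic iWAT. Points are mice numbered by replicate and bars are the mean ± SD of 3 mice. *Alpl* and *Slc6a8* separate the genotypes, and the *Ckmt2* mean of the transgenic group lies far below its replicate 2.

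Plotted by mouse, the members showed no common pattern. In wild-type iWAT *Ckb* had the highest mean, 33.4 FPKM, followed by *Gamt* at 18.6, *Slc6a8* at 4.45, *Alpl* at 4.11, *Gatm* at 3.03, *Ckmt1* at 2.16 and *Ckmt2* at 0.284 FPKM. The mice overlapped between each neighbouring pair from *Slc6a8* to *Ckmt1*, so neighbours among these 4 genes had no clear order. The ends did not overlap, with the lowest *Slc6a8* value, 3.71 FPKM, above the highest *Ckmt1* value, 3.48 FPKM. In transgenic iWAT *Ckb* at 28.8 FPKM and *Gamt* at 17.8 FPKM again led, with *Alpl* at 15.5 and *Slc6a8* at 7.88 FPKM after them. *Gamt* and *Alpl* then overlapped between mice, and *Gatm*, *Ckmt2* and *Ckmt1* followed at 3.68, 2.61 and 1.02 FPKM. The place of *Ckmt2* rested on transgenic replicate 2. In transgenic replicates 1 and 3 *Ckmt2*, at 0.246 and 1.01 FPKM, lay below *Ckmt1*, at 0.503 and 1.60 FPKM. Among the tested loci, whose median level over the 6 mice was 10.6 FPKM, only *Ckb* and *Gamt* of the 7 members lay above that median.

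Synthesis genes came first in the pathway. *Gatm* is on chromosome 2 of mm10 from 122594473 to 122611277. It had 3.75, 4.07 and 3.23 FPKM in transgenic mice and 3.38, 1.97 and 3.73 FPKM in wild-type controls. The groups overlapped, with wild-type replicate 2 the lowest of the 6. A log2 fold change of 0.24 was found with a 95% interval from -0.20 to 0.68 (limma adjusted p = 0.378). The value moved with single libraries, to 0.04 without wild-type replicate 2 and to 0.37 without wild-type replicate 3. This interval leaves room for a fall to 0.873-fold and for a rise to 1.60-fold on the FPKM + 1 scale. The table held a further row for *Gatm* at the same locus, with 0.717 to 1.32 FPKM in transgenic and 0.514 to 1.11 FPKM in wild-type mice, which also overlapped.

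*Gamt* is listed on a locus of chromosome 10 from 79697305 to 80369637 that the table shares among 41 gene symbols, each with values of its own. The gene itself covers 80258151 to 80261012 in GENCODE, and none of its exon bases is shared with another gene. Its values were 23.3, 16.8 and 13.2 FPKM in transgenic mice and 17.3, 22.0 and 16.4 FPKM in wild-type controls. The highest and the lowest of the 6 values were both from transgenic mice. The fitted log2 fold change was -0.09 with a 95% interval from -0.57 to 0.40 (limma adjusted p = 0.788). The direction turned to 0.10 without transgenic replicate 3 and to 0.04 without wild-type replicate 2, so no direction is given.

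RNA of the creatine carrier gene differed between the genotypes. *Slc6a8* is on the X chromosome from 73673123 to 73682500. It had 8.56, 6.88 and 8.21 FPKM in transgenic mice and 5.44, 4.19 and 3.71 FPKM in wild-type controls. The lowest transgenic value lay above the highest wild-type value. The mean was 7.88 ± 0.888 FPKM against 4.45 ± 0.892 FPKM (SD, n = 3 mice each), and the log2 fold change was 0.71 (standard error 0.14, 95% interval 0.39 to 1.04, limma adjusted p = 0.015). The exact permutation test gave p = 0.1, the smallest it can give. The call was lost without transgenic replicate 3 (limma adjusted p = 0.0565), without wild-type replicate 2 (0.0512) and without a filter on low values (0.0689), while the log2 fold change stayed at 0.68 or above in these settings. Leaving out 1 mouse at a time, the fold change ranged from 0.62 to 0.84 on the log2 scale. *Xist*, also X-linked, had a log2 fold change of 0.28 with overlapping groups (limma adjusted p = 0.207).

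Among the members the largest called change was that of *Alpl*, on chromosome 4 from 137741678 to 137796377. The values were 18.5, 13.5 and 14.4 FPKM in transgenic mice and 5.45, 3.79 and 3.09 FPKM in wild-type controls. Each transgenic mouse had over 2 times the *Alpl* level of each control. The mean was 15.5 ± 2.66 FPKM against 4.11 ± 1.21 FPKM (SD, n = 3 mice each). The log2 fold change was 1.71 (standard error 0.19, 95% interval 1.26 to 2.15, limma adjusted p = 0.00203), which placed *Alpl* at rank 102 of the 11692 loci by rise. With each mouse left out in turn it stayed between 1.56 and 1.89, and the adjusted p was 0.0256 or lower in all 14 other settings. Alkaline phosphatase is also made by endothelial cells. The summed level of 10 endothelial markers was 209 to 224 FPKM in transgenic and 210 to 218 FPKM in wild-type mice. *Kdr* and *Emcn* were higher, *Cldn5* lower and 7 not called, against 11.6% higher and 7.03% lower of all tested loci. By CD31 and lectin staining, the authors report an extensive capillary network in transgenic iWAT. The part of endothelial RNA in the *Alpl* values was not tested.

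RefSeq places the start of *Alpl* transcripts at a pair of sites, and the deposited values do not part reads by start. They are shown with the start region of *Ckb*, the most abundant creatine kinase gene of wild-type iWAT, since these are the member with the largest called rise and the best measured kinase gene without a call. Each line holds the 250 bases before a start site in GRCm38.p6 on the strand of the gene, which is the minus strand for all 3, written 5′ to 3′. Capitals mark matches on either strand to the common promoter motifs TATAAA and CCAAT and to the GC box motif GGGCGG.
Alpl, outer start, chr4:137796385-137796634: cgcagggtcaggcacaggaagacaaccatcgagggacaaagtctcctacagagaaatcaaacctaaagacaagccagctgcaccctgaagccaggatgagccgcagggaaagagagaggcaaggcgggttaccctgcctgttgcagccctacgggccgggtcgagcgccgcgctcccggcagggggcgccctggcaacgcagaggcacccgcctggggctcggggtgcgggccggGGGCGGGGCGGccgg
Alpl, inner start, chr4:137766476-137766725: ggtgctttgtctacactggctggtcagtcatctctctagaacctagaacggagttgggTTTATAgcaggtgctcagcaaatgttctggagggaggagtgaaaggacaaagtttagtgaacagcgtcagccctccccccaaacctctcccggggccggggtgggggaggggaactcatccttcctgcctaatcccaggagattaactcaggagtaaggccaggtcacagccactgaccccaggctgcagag
Ckb, chr12:111672339-111672588: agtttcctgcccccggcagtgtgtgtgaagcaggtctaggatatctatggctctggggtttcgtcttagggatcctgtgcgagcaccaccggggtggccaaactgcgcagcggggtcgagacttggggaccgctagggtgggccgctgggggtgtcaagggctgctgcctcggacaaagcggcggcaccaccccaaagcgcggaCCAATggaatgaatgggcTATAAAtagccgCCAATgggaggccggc

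The outer *Alpl* start has GGGCGG at -15 and -10, overlapping by 1 base, and the inner start has TATAAA on the opposite strand at -192, with the first base of the match counted from the start site. *Ckb* has TATAAA at -28 and CCAAT at -46 and -16. Of 32851 such windows in the RefSeq table, 12.4% hold TATAAA, 33.8% CCAAT and 32.7% GGGCGG on either strand. These letters are common, and a match is a description of the window.

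*Ckb*, on chromosome 12 from 111669355 to 111672338, had 29.5, 32.9 and 23.8 FPKM in transgenic mice and 36.0, 33.5 and 30.7 FPKM in wild-type controls. The transgenic values were mostly the lower ones, but transgenic replicate 2 lay above wild-type replicate 3. The mean was 28.8 ± 4.60 FPKM against 33.4 ± 2.64 FPKM (SD, n = 3 mice each). On the log2 scale the change was -0.22 with a 95% interval from -0.52 to 0.09 (limma adjusted p = 0.261), and -0.09 without transgenic replicate 3. A rise above 1.06-fold and a fall below 0.697-fold lie outside this interval on the FPKM + 1 scale. Windows of 100 bases were compared, the read length the authors give before barcodes were removed. Of those in *Ckb* transcripts, 4.54% also occur in the predicted gene *Gm12892*, and no such window is shared between creatine kinase genes. Shorter windows were not tried.

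*Ckmt2* had the largest standard error of the members, 0.61 on the log2 scale. The gene is on chromosome 13 from 91853387 to 91876885. It had 0.246, 6.56 and 1.01 FPKM in the transgenic mice, and 0.413 and 0.439 FPKM in wild-type replicates 2 and 3, and it is listed at 0 in wild-type replicate 1. Transgenic replicate 2 was far above the rest, and transgenic replicate 1 lay below those controls that had a value. The ratio of mean FPKM was 9.17, but the log2 fold change of 1.07 had a 95% interval from -0.37 to 2.52 (limma adjusted p = 0.248). Without transgenic replicate 2 the gene no longer passed the filter, and with the filter also dropped, a setting chosen after the data were seen, the log2 fold change was 0.32 (limma adjusted p = 0.659). Without transgenic replicate 1 it was 1.62 (limma adjusted p = 0.108).

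The muscle markers and *Ckmt2* shared their highest and lowest library, but not the order between these. Transgenic replicate 1 had a marker sum of 198 FPKM and 0.246 FPKM of *Ckmt2*. Wild-type replicate 3 had a lower sum, 97.6 FPKM, and more *Ckmt2*, 0.439 FPKM. Of 13 muscle markers with a row of their own, 12 were highest of all 6 mice in transgenic replicate 2 and 12 were lowest in wild-type replicate 1, the libraries in which *Ckmt2* was highest and lowest. *Ckm*, the muscle-type cytosolic creatine kinase, had 14.0, 119 and 19.3 FPKM in transgenic mice and 0.0657, 23.0 and 5.20 FPKM in wild-type controls. Wild-type replicate 2 had more *Ckm* RNA than transgenic replicates 1 and 3, so the genotypes overlapped (limma adjusted p = 0.167, log2 fold change 2.62). The fast myosin heavy chain gene *Myh4* is listed at 0 in wild-type replicate 1 and reached 46.8 FPKM in transgenic replicate 2. Of 12 muscle markers tested, *Myl1* was called higher and 11 were not called, with a median log2 fold change of 2.12. Without strand, reads of overlapping genes cannot be told apart, and 15.5% of *Ckm* exon bases lie opposite *A930016O22Rik* and 5.7% of *Ckmt2* exon bases opposite *1700119I11Rik*. The part of muscle RNA in the *Ckmt2* values was not tested.

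*Ckmt1*, on chromosome 2 from 121357777 to 121380940 in the table, shares that locus with *Strc*, and each symbol has values of its own. *Ckmt1* had 0.503, 0.960 and 1.60 FPKM in transgenic mice and 3.48, 2.08 and 0.909 FPKM in wild-type controls. Wild-type replicate 3 lay below transgenic replicates 2 and 3, so the groups overlapped. The change of -0.59 on the log2 scale had a 95% interval from -1.38 to 0.20 (limma adjusted p = 0.243). It was -0.30 without wild-type replicate 1, -0.40 without transgenic replicate 1 and -0.92 without wild-type replicate 3. Epithelial cells are a known site of this isoform. The summed level of 11 epithelial markers was 147, 204 and 293 FPKM in transgenic mice and 338, 279 and 242 FPKM in wild-type controls, which is the same order within each genotype as that of *Ckmt1*. All 11 were highest, among the controls, in wild-type replicate 1, and 10 were highest, among the transgenic mice, in replicate 3. Across genotypes the orders parted. Transgenic replicate 3 had a higher marker sum than wild-type replicate 2, 293 against 279 FPKM, but less *Ckmt1*, 1.60 against 2.08 FPKM. By limma 0 of the 11 were called, and 3 had an unadjusted p under 0.05, all lower in transgenic iWAT. All 11 log2 fold changes were negative, with a median of -0.35. The part of epithelial RNA in the *Ckmt1* values was not tested.

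**Figure D2:**
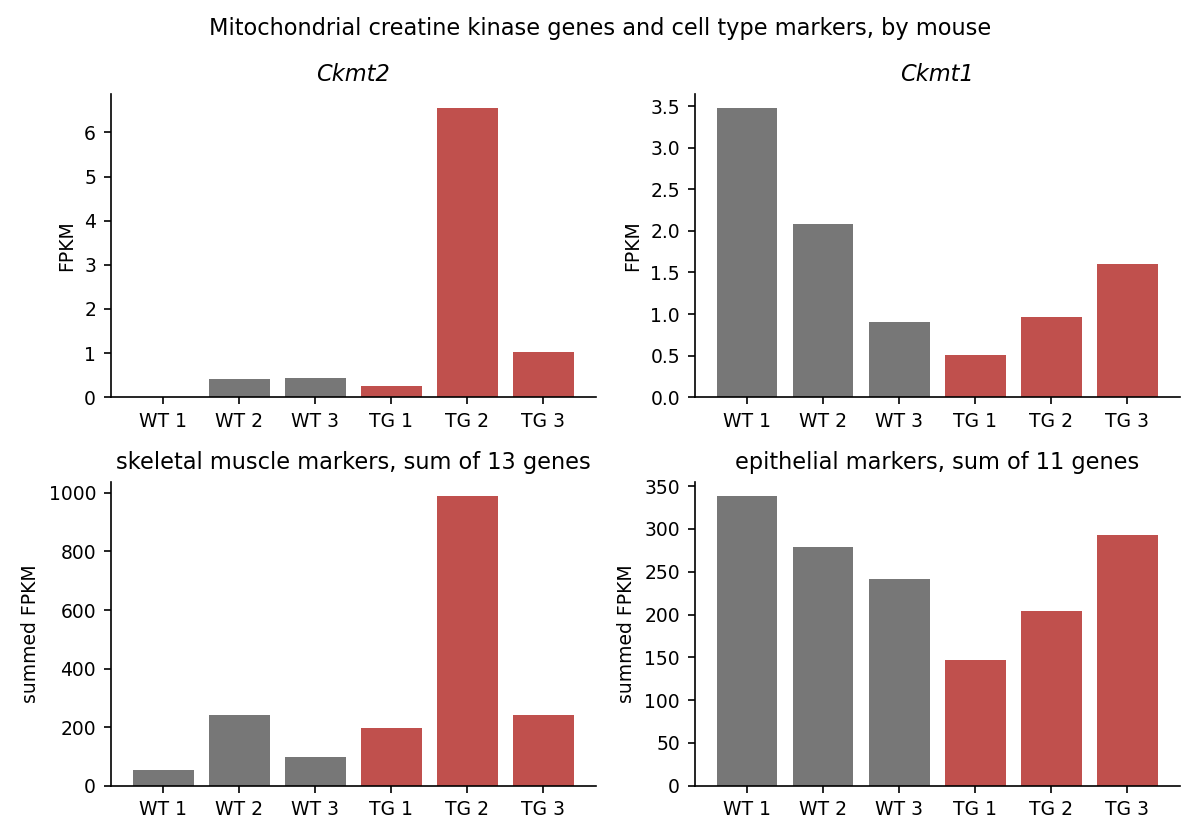
FPKM of *Ckmt2* and *Ckmt1* (upper bars) and the summed FPKM of 13 skeletal muscle and 11 epithelial markers (lower bars) in each mouse, with wild type (WT) in grey and transgenic (TG) in red. The tallest *Ckmt2* bar, 6.56 FPKM, and the tallest muscle bar, 988 FPKM, are both transgenic replicate 2, and *Ckmt1* and the epithelial markers are both highest in wild-type replicate 1.

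The bars of each mitochondrial kinase gene thus stand beside those of the markers measured in the same mouse. A similar view of all creatine kinase genes was taken from the shares of their summed FPKM. The sum over *Ckb*, *Ckm*, *Ckmt1* and *Ckmt2* was 44.3, 160 and 45.7 FPKM in transgenic mice and 39.5, 59.0 and 37.3 FPKM in wild-type controls. *Ckb* made up 66.7%, 20.6% and 52.1% of it in transgenic mice, against 91.0%, 56.7% and 82.4% in controls. The groups overlapped, and the share was 46.5% ± 23.5 against 76.7% ± 17.8 (SD, n = 3 mice each; exact permutation test, two-sided p = 0.2). Without *Ckm* the *Ckb* share was 97.5%, 81.4% and 90.1% in the transgenic and 91.2%, 93.1% and 95.8% in the wild-type mice, and the difference was -3.67 instead of -30.3 percentage points (exact permutation test, two-sided p = 0.6). *Ckmt1* and *Ckmt2* together stayed under *Ckb* in every mouse.

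**Figure D3:**
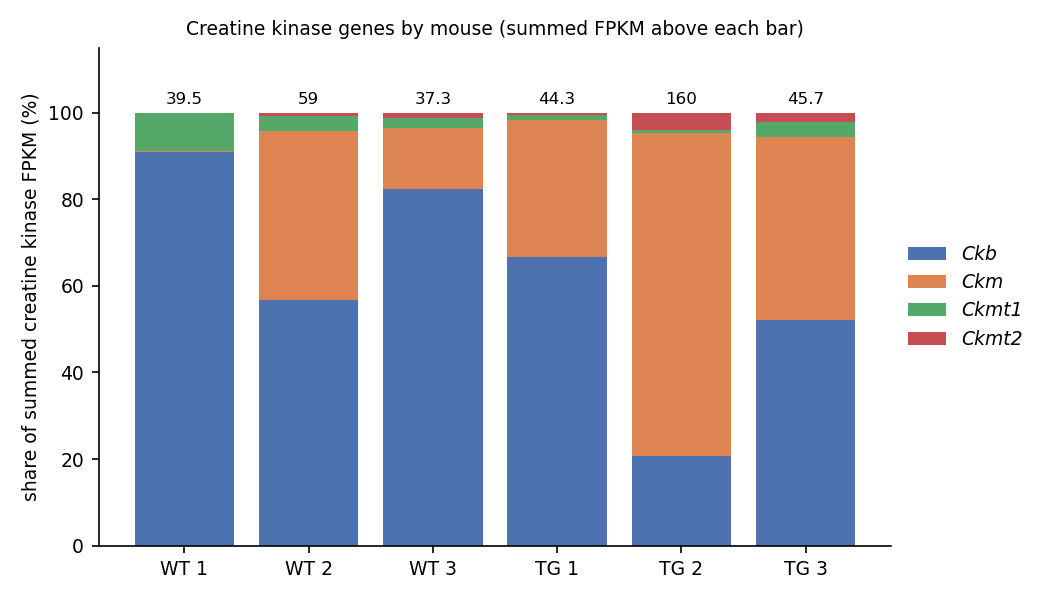
Share of the summed creatine kinase FPKM (percent, vertical axis) taken by *Ckb*, *Ckm*, *Ckmt1* and *Ckmt2* in each wild-type (WT) and transgenic (TG) mouse, with the sum in FPKM above each bar. *Ckm* takes 74.7% in transgenic replicate 2 and 0.166% in wild-type replicate 1.

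The stacked shares differ between mice of 1 genotype mainly by *Ckm*. The genes around the creatine pathway were then counted from 5 lists set by function, with 54 genes in all. Of the 44 tested, 11 were higher and 8 lower in transgenic iWAT by limma, against 11.6% higher and 7.03% lower of all tested loci. Groups without overlap were seen for 25 of the 44, and for 42.9% of all tested loci. The 7 genes *Ak5*, *Arg1*, *Mat1a*, *Bhmt*, *Alpi*, *Akp3* and *Alppl2* did not pass the filter, *Ak4* and *Amt* are listed only on rows of several genes, and *Mtr* was not analysed here. The lists were small, and calls in both directions were made within some of them. They were chosen with earlier results of these data known, so their counts are no test against all loci.

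**Figure D4:**
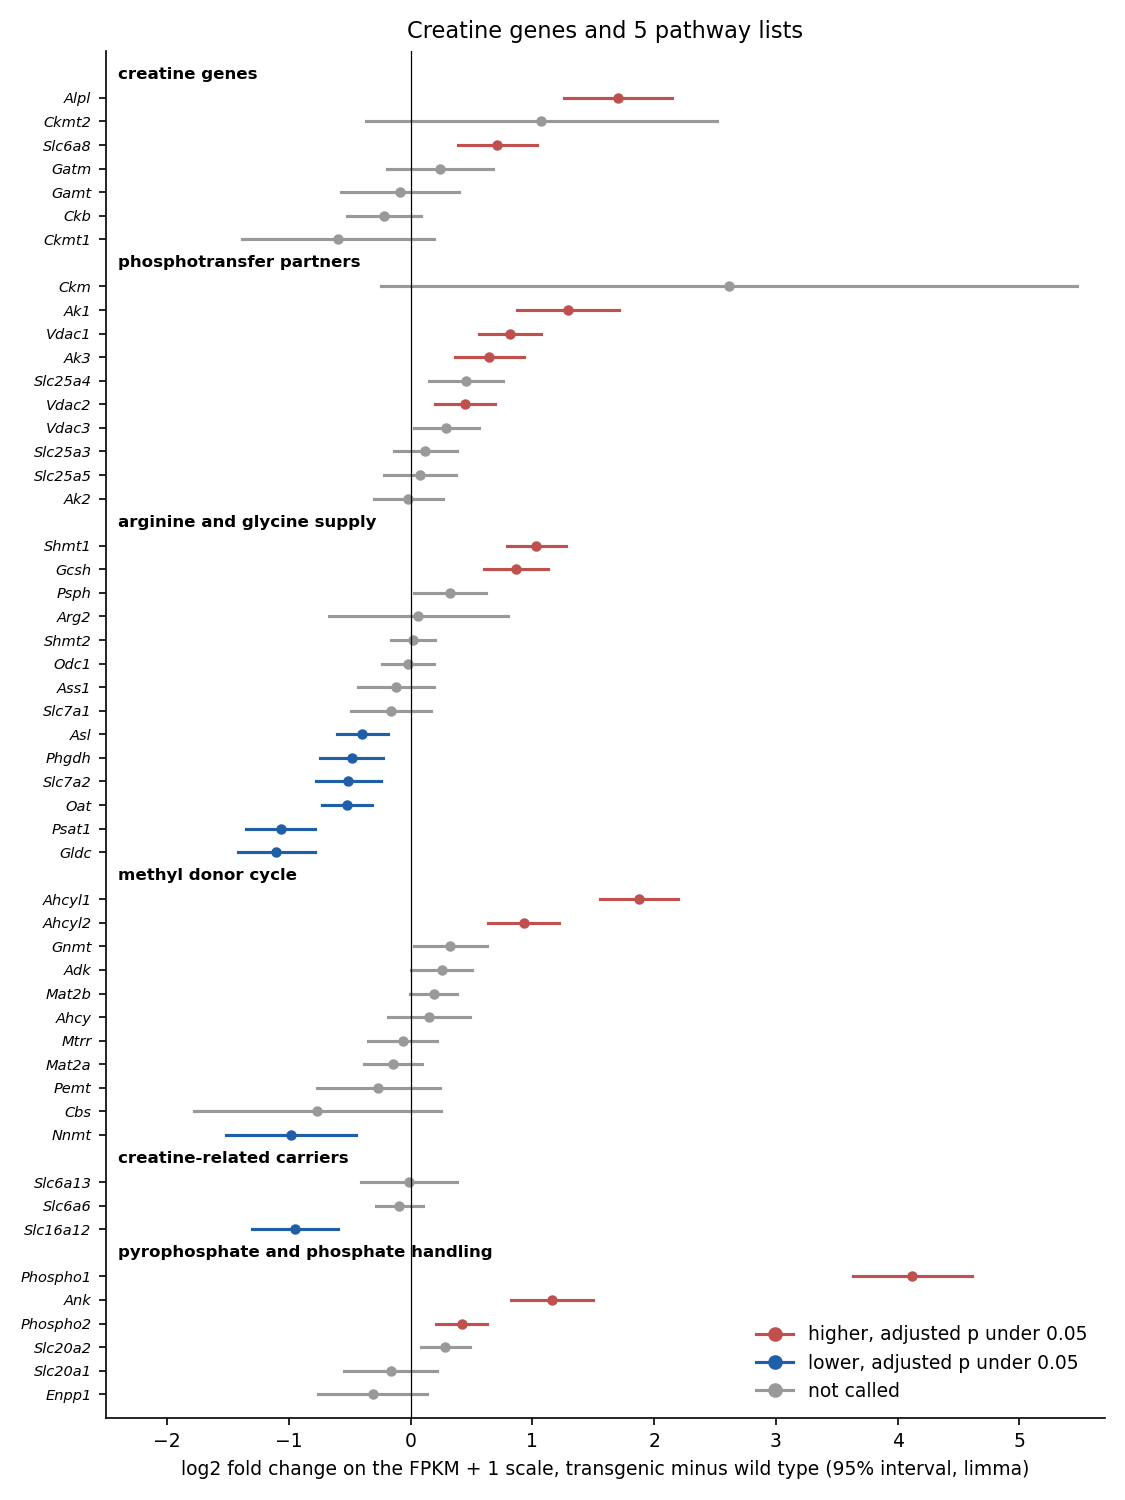
Log2 fold change on the FPKM + 1 scale, transgenic minus wild type (horizontal axis), with the 95% limma interval, for the 7 creatine genes and the 44 tested genes of the 5 pathway lists. Red marks genes called higher, blue genes called lower and grey genes not called. *Phospho1* lies farthest to the right at 4.12, and the intervals of *Ckm* and *Ckmt2* are the widest of the kinase genes.

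Among these fold changes, phosphotransfer partners were *Ckm*, the adenylate kinases, which pass phosphate between adenine nucleotides, the mitochondrial ADP/ATP and phosphate carriers, and the outer membrane channels. Of 10 tested, 4 were higher, 0 were lower (also 0 at an unadjusted limma p under 0.05) and 6 were not called, with a median log2 fold change of 0.45. Over all tested loci, 11.6% were called higher and 7.03% lower. *Ak1*, the cytosolic adenylate kinase, had 34.0, 29.1 and 20.7 FPKM in the transgenic and 9.61, 11.9 and 10.4 FPKM in wild-type controls, without overlap. This was a rise of 1.29 on the log2 scale, with a standard error of 0.18 (limma adjusted p = 0.00424). *Vdac1*, *Ak3* and *Vdac2* rose by log2 fold changes of 0.82, 0.65 and 0.45, and of 15 other settings *Vdac2* lost its call in 5 and *Ak3* in 1, that without a filter on low values (limma adjusted p = 0.0517). *Slc25a4* and *Slc25a5*, which exchange ADP for ATP across the inner membrane, had log2 fold changes of 0.45 and 0.08 with limma adjusted p of 0.0506 and 0.691.

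The list of arginine and glycine supply concerns the substrates of *Gatm*. It pools genes that make these amino acids with genes that use them, such as those of glycine cleavage. Of 14 tested, 2 were higher, 6 lower and 6 not called, so the counts give no direction of supply. All tested loci had shares of 11.6% higher and 7.03% lower. The median log2 fold change of the list was -0.14. *Psat1*, an enzyme of serine synthesis, fell from 44.6 ± 4.05 FPKM to 20.9 ± 2.84 FPKM (SD, n = 3 mice each; log2 fold change -1.07, limma adjusted p = 0.00215). *Gldc*, the glycine decarboxylase of the glycine cleavage system, had 0.676, 1.13 and 0.85 FPKM in the transgenic and 3.26, 3.23 and 2.64 FPKM in wild-type controls. The groups did not overlap, and it passed the filter through the wild-type mice alone (log2 fold change -1.10, limma adjusted p = 0.00275). *Shmt1*, which interconverts serine and glycine in the cytosol, rose to 11.8 ± 0.616 FPKM in transgenic mice from 5.29 ± 0.726 FPKM in controls (SD, n = 3 each, limma adjusted p = 0.00139). *Gcsh*, the carrier protein of the same cleavage system as *Gldc*, rose by a log2 fold change of 0.87 (limma adjusted p = 0.00326). The other 4 lower genes had log2 fold changes from -0.52 to -0.40, and *Asl*, *Slc7a2* and *Phgdh* among them each lost their call in 5 or 6 of 15 other settings. Macrophage markers also went down, with 4 of 7 called and a summed level of 358 to 510 FPKM in transgenic against 754 to 955 FPKM in wild-type mice. Their part in the lower genes was not tested.

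The methyl donor list holds the enzymes that make and recycle S-adenosylmethionine, used by *Gamt*, and other enzymes that use it. It also holds related genes such as *Ahcyl1* and *Ahcyl2*. Of 11 tested, 2 were higher (*Ahcyl1* and *Ahcyl2*), 1 lower and 8 not called, against 11.6% higher and 7.03% lower of all tested loci. The median log2 fold change was 0.15. *Ahcyl1* had 207, 149 and 193 FPKM in the transgenic and 52.7, 47.4 and 46.4 FPKM in wild-type controls, with the lowest transgenic value far above the highest control. The rise was 1.87 on the log2 scale, with a standard error of 0.14 (limma adjusted p = 0.000581), while *Ahcyl2* rose by 0.93 (limma adjusted p = 0.00371). Both encode relatives of adenosylhomocysteinase that are known as regulators of calcium channels and transporters. *Ahcy*, the hydrolase itself, and the synthetase gene *Mat2a* had log2 fold changes of 0.15 and -0.14 with limma adjusted p of 0.47 and 0.336. *Nnmt*, which methylates nicotinamide, fell from 112 ± 21.6 FPKM to 56.9 ± 17.1 FPKM (SD, n = 3 mice each; limma adjusted p = 0.0271), and 5 of 15 other settings did not give this call.

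Of 3 other carriers, 1 was lower, 0 were higher and 2 were not called, against 11.6% higher and 7.03% lower of all tested loci. The lower gene was *Slc16a12*, a monocarboxylate carrier family member known to transport creatine. It had 0.570, 0.419 and 0.514 FPKM in the transgenic and 1.83, 2.41 and 1.51 FPKM in wild-type controls, so the groups did not overlap. Its change was -0.95 on the log2 scale, with a standard error of 0.15 (limma adjusted p = 0.00702), and the call was kept in all 15 other settings. The gene passed the filter through the wild-type mice alone. *Slc6a13* and *Slc6a6*, carriers of GABA and taurine from the same family as *Slc6a8*, had log2 fold changes of -0.01 and -0.09 with limma adjusted p of 0.968 and 0.447.

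Phosphate handling is the list that *Alpl* belongs to by activity, since its product also hydrolyses pyrophosphate outside the cell. Of 6 tested genes, 3 were higher, 0 were lower (also 0 at an unadjusted limma p under 0.05) and 3 were not called. The shares over all tested loci were 11.6% higher and 7.03% lower. *Phospho1*, the phosphoethanolamine and phosphocholine phosphatase that acts beside *Alpl* in bone mineralization, rose to 205 ± 44.8 FPKM in transgenic mice from 10.9 ± 2.66 FPKM in controls (SD, n = 3 each, log2 fold change 4.12, limma adjusted p = 0.000231). The ratio of *Alpl* to *Phospho1* FPKM was 0.0733, 0.0826 and 0.0725 in the transgenic and 0.397, 0.448 and 0.297 in the wild-type mice, so the rise of *Alpl* was the smaller one in proportion. *Ank*, a membrane protein of pyrophosphate export, had 95.9, 68.2 and 79.8 FPKM in the transgenic and 34.5, 40.2 and 32.1 FPKM in wild-type controls (log2 fold change 1.16, limma adjusted p = 0.00292). *Enpp1*, which forms pyrophosphate, was not called (log2 fold change -0.31, limma adjusted p = 0.273), and *Phospho2* was called at 0.42 and lost this call in 6 of 15 other settings. The other alkaline phosphatase genes *Alpi* and *Alppl2* are listed at 0 in every mouse, and *Akp3* has a value, 0.0222 FPKM, in transgenic replicate 2 alone.

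The loci with the most similar profile to each member over the 6 mice were found by Pearson's r of log2(FPKM + 1), among 8378 or 8379 other loci with a mean over 5 FPKM. These values describe likeness over 6 libraries that share the genotype split. Each pair was picked as the closest among 8378 or 8379 over few libraries, so a high r is no sign of shared control. For *Alpl* they were *Pdhx* (r = 0.9995) and *Foxred1* (0.9992), which encode a pyruvate dehydrogenase component and a complex I assembly factor. For *Slc6a8* they were *Ptcd2* (0.9994) and *Mob1b* (0.9989). *Ckmt2* was nearest to *Mb* (0.9913), the myoglobin gene of muscle, and then to *Fam53c* (0.9695). *Ckb* was nearest to *Cercam* (0.9849) and *As3mt* (0.9845), *Ckmt1* to *Prpf38a* (0.9871) and *Zfp207* (0.9792), *Gatm* to *Adck2* (0.9845) and *Sav1* (0.9826), and *Gamt* to *Fosl2* (0.9931) and *Cndp2* (0.9782).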

How the data were processed

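Total RNA of iWAT was sequenced by the authors from TruSeq libraries as single-end reads. Per the labels and the methods, reads were mapped to mm10 with TopHat2 2.0.9 and Bowtie2 2.1.0 and quantified with Cufflinks 2.2.1. The annotation is not given in the sources used here. The authors deposited FPKM per locus and mouse, with no pooling, and all 6 columns were used. The values of a library sum to between 466059 and 542096. Absolute depth is unknown. Steps between low values were sought over 903 loci, but too few loci shared a step to give the relative depth of the libraries, so whole reads were not recovered and no count test was run.

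From the FPKM values, limma 3.58.1 in R 4.3.3 (lmFit, eBayes with trend, no covariates) was run on log2(FPKM + 1), a procedure first tested on simulated data, for all loci with a mean over 1 FPKM in at least 1 genotype. Cuffdiff, which the authors used, needs the reads. Single shares were tested with scipy 1.17.1 by exact permutation over the 20 arrangements. Deposited loci count their start from 0, so 1 was added. GENCODE M21 (the same build) gave exons and transcripts, and RefSeq promoters matched 6 of the 7 members. List genes were matched by symbol, then by an older symbol. The named pathway genes are up to 4 called genes a list by size of change. Genes named beyond this rule were chosen after their values were seen. The members and lists were chosen with earlier results of these data known. The labels do not say whether mice came from separate litters. Markers of lymphocytes (1 of 9 tested lower, 0 higher) and Schwann cells (1 of 5 tested higher, 0 lower) were also counted.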

Additional observations from a re-analysis of the deposited data

How the results depend on the processing

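The count of creatine genes called higher was 2 in most alternatives and 1 without a filter on low values, at an adjusted p under 0.01 and in 2 of the 6 fits that left out a mouse (range 1 to 2), and *Slc6a8* was the gene lost each time (its log2 fold change was 0.71 without the filter and 0.62 to 0.84 with a mouse left out). *Alpl* was called in all 14 alternatives, and none of the 7 was called lower in any. The count of pathway genes called higher ranged from 8 to 13, and that of genes called lower was 8, against 4 without the filter, 4 at an adjusted p under 0.01 and 4 to 8 with a mouse left out (4 without transgenic replicate 3 or wild-type replicate 1, 5 without transgenic replicate 1 or wild-type replicates 2 or 3). The cause was not tested. The log2 fold change of *Gamt* ranged from -0.29 to 0.10 with a mouse left out, turning to 0.10 without transgenic replicate 3 and to 0.04 without wild-type replicate 2, and that of *Ckb* from -0.32 to -0.09. The difference in the *Ckb* share was -3.67 percentage points without *Ckm* and -40.4 to -17.3 with a mouse left out. Quantile and median-ratio scaling changed no call among the 7 and moved the median of all loci to -0.03 and -0.01. The replicate numbers name different animals, and same-numbered mice deviated together by r of 0.0129 to 0.0701, below some differently numbered pairs (up to 0.135). With the number as a replicate block, 2 creatine genes were higher, 12 pathway genes higher and 7 lower. *Ckmt2* has no value without transgenic replicate 2 unless the filter is dropped too, an alternative chosen after seeing the data (log2 fold change 0.32). Depth is unknown, so the counting error of low values such as those of *Ckmt1* and *Ckmt2* cannot be given.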
